A study of Mus musculus with 2 samples.

Results

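The genes that hold epithelial cells together were examined in mouse pancreatic islets as a group of 50 genes, chosen by name: 14 claudins, 11 other tight junction and polarity genes, 6 adherens junction genes counted with Epcam, 6 desmosome genes, 4 keratins, 6 genes of epithelial regulation and trafficking, and 3 genes of membrane serine proteases and their inhibitors. All 50 were measured, by 102 of the 45101 probe sets of the array, and they make up 50 of the 18193 genes read by at least 1 probe set annotated to them alone. One sample was islets of transgenic male mice aged 6 weeks that overexpress miR-141 and miR-200c, labelled Ripmir, and the other was islets of control male mice of the same age, labelled C57Bl6. The labels do not name the promoter that drives the transgene, the strain of the transgenic mice, or the number of mice behind each sample, and give beta cells as the source of an islet preparation. After their extraction the islets received no further treatment. Each genotype has 1 array (n = 1), which leaves every value without a replicate error and every difference without a replicate check or a p-value.

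Claudins are membrane proteins that set how tight the seal between neighbouring epithelial cells is, and which ions leak through it. Adherens junctions, built on cadherins and catenins, and desmosomes, anchored to keratin filaments, give the mechanical hold. The miR-200 family is a known guardian of the epithelial state: its members repress the messenger RNAs of Zeb1 and Zeb2, transcription factors that shut down E-cadherin and other epithelial genes by binding E-boxes in their promoters. Islet cells are epithelial in origin and carry E-cadherin and neural cadherin on their surface.

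The mature 3p strands of the overexpressed pair are shown first, from RefSeq (GRCm38.p6), because their seeds decide which messages they pair with. Capitals mark the seed, bases 2 to 8 from the 5' end. Both genes lie on the minus strand of chromosome 6, at chr6:124717917-124717938 and chr6:124718324-124718346.
miR-141-3p: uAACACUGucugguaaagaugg
miR-200c-3p: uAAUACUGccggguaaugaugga
The seeds differ by C4U, counted from the 5' end with miR-141-3p first. Of the other family members, miR-200a-3p shares the seed of miR-141-3p, and miR-200b-3p and miR-429-3p share that of miR-200c-3p. No probe set used here reads these microRNAs, so their overexpression was not checked.

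All values are log2 RMA values, and differences are given as transgenic minus control, so a difference of 1 is 2-fold. Where a gene had several probe sets, the one with the highest mean over both arrays, called the leading one, stands for the gene. A gene was counted when it reached a floor of 5.76, the median of all values, on at least 1 array; background limits values below it. Signals of different probe sets are not comparable with each other, so only differences between the arrays are compared between genes. The beta cell markers Ins2, Iapp, Slc2a2, Pdx1, Nkx6-1, Ucn3, G6pc2 and Slc30a8 were all above the floor on both arrays. Ucn3 had the lowest difference of these, at -0.81. Of 8 listed acinar markers 6 were measured, all 6 positive, with a mean of 11.20 in transgenic and 11.02 in control islets. Among them Cpa1 read 14.17 in transgenic and 14.04 in control islets, and Ptf1a was below the floor on both. Both samples thus held acinar RNA, and its part in the junction gene values was not tested. All 24 poly-A spike controls were higher on the transgenic array, with a median difference of 1.51, as were all 18 hybridisation controls, with a median of 0.40, and equal RNA input was not established.

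Most of the junction genes read nearly alike in transgenic and control islets, and 3 were 2-fold higher in the transgenic sample: Cldn2, Patj and Ovol2. Of the 50 genes 42 reached the floor, 41 of them on both arrays. The 3 higher genes are 7.14% of these 42, against 2.51% (305) of all 12143 genes at the floor, and Ovol2 and Patj each left the count under some processing alternatives. None of the 42 was 2-fold lower, where 0.511% (62) of all genes were. Of the 42 genes 38 (90.5%) had a difference within 0.5 of 0, a span that held 85.2% of all genes. Their median difference was 0.078 with 25 positive and 17 negative, beside a median of 0.029 and 54.2% positive over all genes. At a 1.5-fold rule the count stayed at 3 higher and 0 lower, with the same 3 genes, where the shares over all genes were 7.73% and 3.14%. These counts describe this pair of samples alone.

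**Figure D1:**
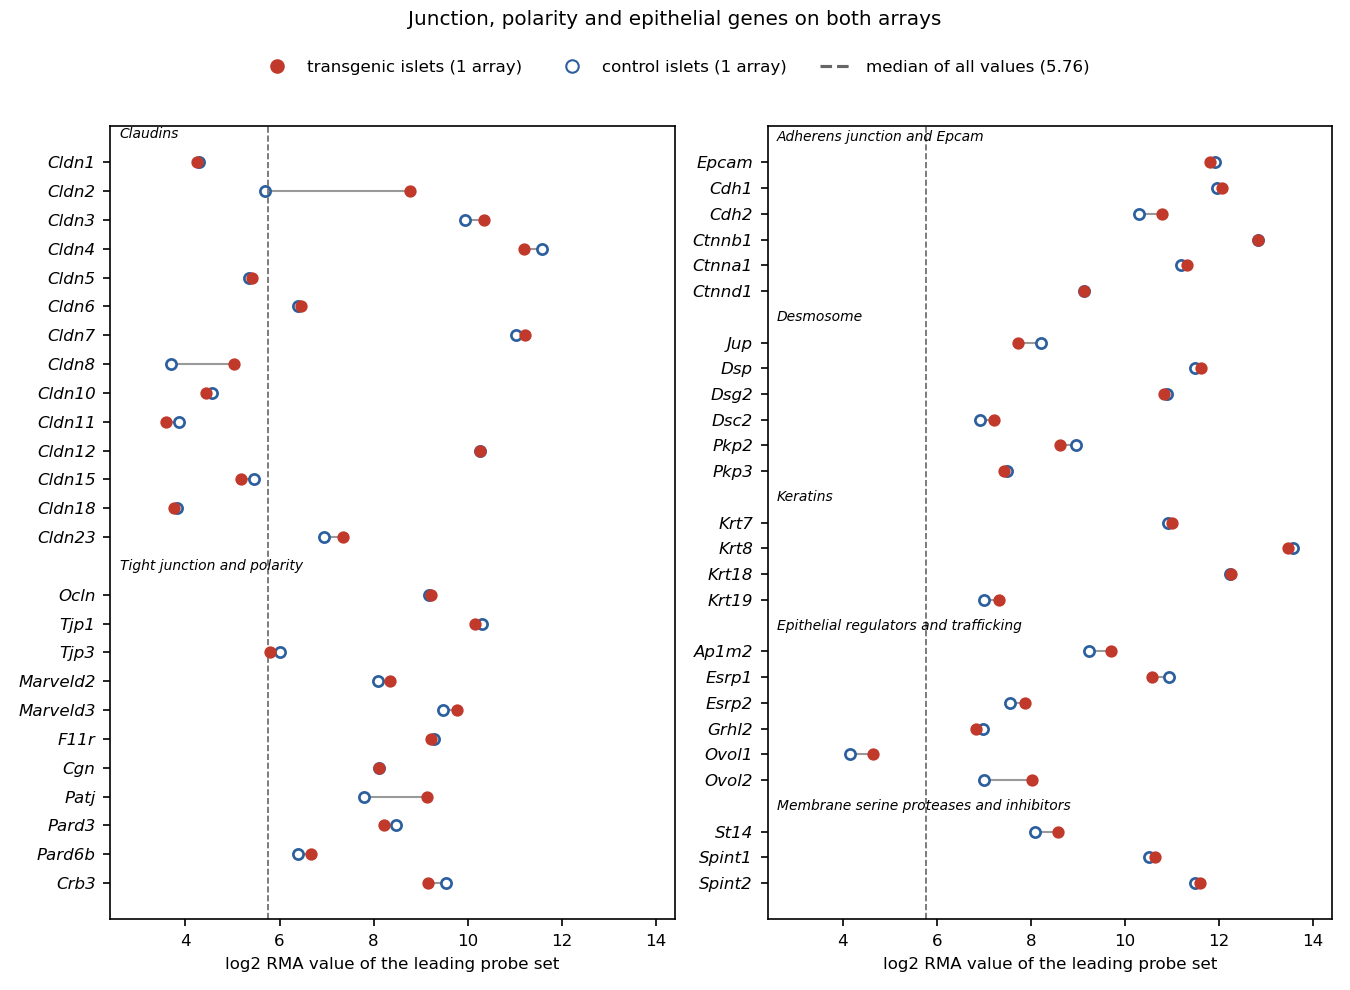
Log2 RMA values of the leading probe set of each of the 50 genes, in 7 role groups, for transgenic islets (filled) and control islets (open), 1 array each; the dashed line is the floor of 5.76. Cldn2, Patj and Ovol2 show the widest gaps among genes at the floor, and Cldn8 a wide gap below it.

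Of the claudins, 7 of 14 reached the floor, and Cldn2 was the one past the 2-fold rule. Claudin-2 forms a channel for small cations and water in leaky epithelia such as kidney proximal tubule and gut. Its leading probe set read 8.76 in transgenic islets and 5.69 in control islets, a measured 8.42-fold. The control value lay below the floor, so background limits this fold, and Cldn2 was counted among the 42 through its transgenic value alone. The other Cldn2 probe set read 4.65 on both arrays, below the floor, so a single probe set carries the difference.

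Of 10 listed enterocyte markers 9 were measured and 6 reached the floor. Of these 6, 4 were 2-fold higher in the transgenic sample (Fabp1, Fabp2, Alpi and Cdh17), beside 2.51% of all genes at the floor. Fabp1, Fabp2 and Cdh17 reached the floor through their transgenic values alone. The fatty acid binding protein genes Fabp1 and Fabp2 read 7.96 and 8.47 in transgenic islets, against 3.66 and 3.64 in control islets, below the floor. Alpi, an intestinal alkaline phosphatase gene, read 8.22 in transgenic and 5.86 in control islets. Vil1 (villin), a brush border protein, was level at 9.43 in transgenic and 9.39 in control islets. Apoa4 read 6.13 in transgenic and 5.31 in control islets, the control value below the floor. Cdx1, Cdx2 and Lct were below the floor on both arrays, with differences of 0.045, 0.41 and 0.43. The 9 measured markers were all positive, with a mean log2 value of 6.73 in transgenic and 5.10 in control islets. More cells of a type and more RNA per cell cannot be told apart in such bulk samples, and the part of other cells in the Cldn2 difference was not tested.

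The other claudins at the floor lay within 0.5 of 0 by their leading probe sets. Cldn4, a barrier claudin, read 11.20 in transgenic and 11.59 in control islets, a difference of -0.39. Cldn7, which also lies along the lateral membrane of epithelial cells, read 11.23 in transgenic and 11.03 in control islets, a difference of 0.19. Cldn3, a sealing claudin, read 10.34 in transgenic and 9.94 in control islets. Its 4 probe sets all reached the floor and were all higher in the transgenic sample, by 0.41 to 1.04, and the leading one gave the smallest of these differences. All 4 Cldn3 probe sets are of classes that can match more than 1 transcript. Cldn23 had a difference of 0.40, Cldn6, a claudin of embryonic epithelia, 0.071 and Cldn12 -0.0090. Thus Cldn4 differed in the opposite direction to Cldn3, without a replicate check. The Cldn7 difference was smaller than the median gap between probe sets of a gene over all genes (0.28).

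The remaining 7 claudins stayed below the floor on both arrays. These were Cldn1 of skin and other tight epithelia, Cldn5 of endothelium, Cldn8 and Cldn10 of kidney tubules, Cldn11 of myelin, Cldn15 of gut and Cldn18 of stomach and lung. Cldn8 read 5.03 in transgenic and 3.68 in control islets, a difference of 1.35 with both values below the floor, where background limits them. The others of this set differed by -0.27 to 0.047.

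Of the tight junction and polarity genes, all 11 reached the floor and Patj was the one past the rule. Patj encodes a scaffold with many PDZ domains that links the Crumbs polarity complex to the tight junction. It read 9.12 in transgenic and 7.79 in control islets, 2.52-fold higher. A second probe set above the floor read 8.77 and 7.42 in transgenic and control islets, a difference of 1.35, so both informative probe sets showed the same gap. The remaining 2 were below the floor, at differences of 1.14 and 0.15. Of all genes 142 had a difference at least as high as that of the leading probe set.

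The other Crumbs and Par polarity genes among the members showed no such gap. No probe set was found under the symbol Pals1, another gene of the Crumbs complex, and other symbols of this gene were not searched. Crb3, the Crumbs protein of epithelia, read 9.16 in transgenic and 9.55 in control islets, and its 3 probe sets, all at the floor, had differences of -0.38 to -0.32. Pard3, a scaffold of the Par polarity complex, had a difference of -0.27 with its other probe set at the floor at 0.019, and Pard6b, its partner, one of 0.29 with the other at -0.19. Patj and Crb3 thus differed in opposite directions within the Crumbs complex, while probe sets of the Par genes did not share a sign. The difference between Patj and Crb3 has no test, since each rests on the same pair of arrays.

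The classical tight junction proteins read close to each other in both samples. Ocln (occludin), a membrane protein of the junction strand, read 9.22 in transgenic and 9.18 in control islets, while its other probe set had a difference of -0.44. Tjp1 (ZO-1), the scaffold beneath the strand, read 10.15 in transgenic and 10.31 in control islets, a difference of -0.16. Marveld3, a relative of occludin, read 9.77 in transgenic and 9.47 in control islets, and its 3 probe sets ran from 0.31 to 0.55. Tricellulin, which seals corners where 3 cells meet and is encoded by Marveld2, had a difference of 0.24. Tjp3 (ZO-3), F11r (JAM-A) and Cgn (cingulin) had differences of -0.20, -0.077 and -0.0079.

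Adherens junction genes were nearly level. Cdh1 (E-cadherin), the calcium-dependent adhesion molecule of epithelia, read 12.06 in transgenic and 11.95 in control islets, a difference of 0.11. Ctnnb1 (beta-catenin), which binds the tail of E-cadherin, read 12.82 in transgenic and 12.83 in control islets, although another probe set had a difference of 0.39. Epcam, an adhesion protein of epithelial cells, read 11.80 in transgenic and 11.92 in control islets, and its second probe set had a difference of -0.22. Ctnna1 (alpha-catenin), the link to actin, and Ctnnd1 (p120), which holds cadherins at the surface, had differences of 0.13 and 0.017. Cdh2 (N-cadherin) differed most in this group, at 10.78 in transgenic and 10.29 in control islets, and both of its probe sets gave a difference of 0.49. N-cadherin is present in beta cells and also in mesenchymal and neural cells. Stellate and fibroblast markers were positive in 10 of 11 (mean 7.96 in transgenic and 7.30 in control islets, with Col1a1 and Pdgfra below the floor on both), and Schwann and neural markers in 6 of 6 measured of 8 listed (mean 6.22 in transgenic and 5.66 in control islets, with S100b and Foxd3 below the floor on both). The part of either in the Cdh2 difference was not tested.

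In the desmosome group no gene passed the rule and 4 of 6 were negative, with a median of -0.058. Jup (plakoglobin), shared by desmosomes and adherens junctions, read 7.72 in transgenic and 8.20 in control islets. Its difference of -0.48 was the lowest of the 42 genes, and 625 of all genes were at least as low. Jup has a single probe set, of a class that can match more than 1 transcript. Dsp (desmoplakin), which ties desmosomes to keratins, read 11.61 in transgenic and 11.49 in control islets. Dsg2, a desmosomal cadherin, read 10.82 in transgenic and 10.88 in control islets. Dsg2 had 5 probe sets at the floor, with differences of -0.26 to 0.063. The partner cadherin Dsc2 stood at 0.30, and the plaque proteins Pkp2 and Pkp3 at -0.33 and -0.052.

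The keratins read alike in both samples. Krt8, a filament protein of simple epithelia, read 13.45 in transgenic and 13.57 in control islets, high on a scale that flattens differences at its upper end. Krt18, its filament partner, read 12.25 in transgenic and 12.23 in control islets. Krt7 had a difference of 0.085. Krt19, the keratin of pancreatic ducts, read 7.33 in transgenic and 7.01 in control islets, a difference of 0.32. Of the 8 measured of 10 listed ductal markers, which include Krt7 and Krt19, 6 were positive, with a mean of 6.40 in transgenic and 6.35 in control islets, and Cftr, Onecut1 and Onecut2 were below the floor on both.

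Among the epithelial regulators, Ovol2 stood just past the 2-fold rule. Ovol2 is a zinc finger factor that keeps cells epithelial and represses Zeb1. Its single probe set read 8.03 in transgenic and 7.00 in control islets, 2.04-fold higher, and 285 of all genes had a difference at least as high. The call ended after a lowess trend was subtracted or the arrays were quantile normalized again, at 0.97 under both. Its relative Ovol1 was below the floor on both arrays. The trafficking adaptor subunit Ap1m2, which sorts cargo to the basolateral side, read 9.70 in transgenic and 9.24 in control islets, a difference of 0.46. The splicing regulator Esrp1 read 10.58 in transgenic and 10.93 in control islets, a difference of -0.35, while its paralogue Esrp2 had a difference of 0.32. Grhl2, a factor that activates junction genes, stood at -0.15, with a second probe set at -0.46. Regulators of the same programme therefore had differences of both signs.

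The protease group was positive throughout but within the rule. Spint1, a surface inhibitor of serine proteases, read 10.63 in transgenic and 10.50 in control islets. Its relative Spint2 read 11.60 in transgenic and 11.48 in control islets, a difference of 0.12, while the other Spint2 probe set had one of 0.38. St14 (matriptase), a membrane protease they inhibit, read 8.58 in transgenic and 8.08 in control islets, a difference of 0.50.

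Agreement between probe sets of a gene was the only internal measure of spread, and such probe sets read the same RNA. Of the 20 members with at least 2 probe sets at the floor, 14 (70.0%) had differences of 1 sign, against 58.2% of 5180 genes. The median gap between the highest and lowest difference within a gene was 0.16 for members and 0.28 over all genes. Of the 42 members 24 had a difference smaller than that overall gap. At the level of probe sets, 5 of the 70 at the floor were 2-fold higher, beside 2.15% of 20548 over all genes, and 0 were 2-fold lower, beside 0.784%.

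**Figure D2:**
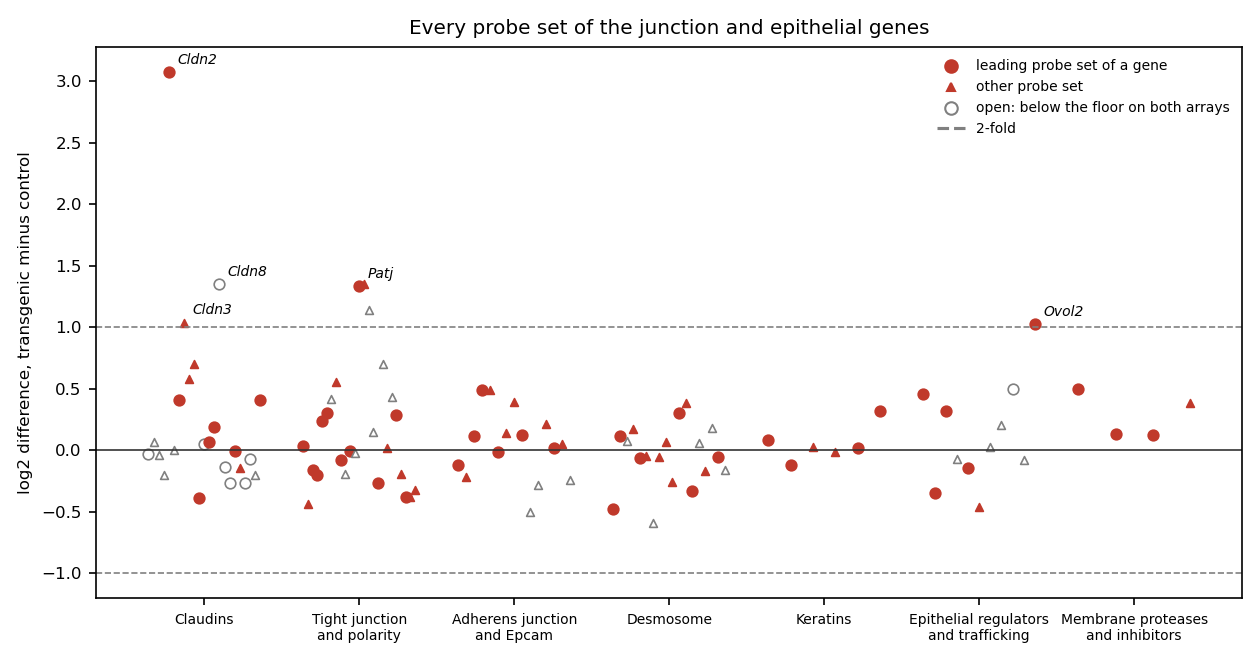
Log2 difference, transgenic minus control, of all 102 probe sets by role group; circles are leading probe sets, triangles other probe sets of a gene, and open symbols lie below the floor on both arrays. Both Patj probe sets at the floor lie above the 2-fold line, a Cldn3 probe set lies just above it, and none at the floor lies below the lower line.

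The repressors that link miR-200 microRNAs to epithelial genes did not pass the 2-fold rule in either direction. Zeb1 read 9.20 in transgenic and 9.10 in control islets, a difference of 0.10, with its other probe sets at -0.093 to 0.50. Zeb2 read 6.54 in transgenic and 5.89 in control islets, a difference of 0.64. Its other 4 probe sets were below the floor on both arrays and ran from -0.22 to 0.32. Snai1 and Snai2, related repressors, were below the floor on both. Of 8 listed repressors 3 reached the floor (Zeb1, Zeb2 and Tcf4). Macrophage markers, from cells that can contribute Zeb2, were positive in 9 of 10, with a mean of 8.24 in transgenic and 7.50 in control islets and Itgam below the floor on both. Their part in the Zeb2 value was not tested.

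Of 52 other junction and polarity genes, 43 were measured and 30 reached the floor, with a median difference of 0.086. Of these 30, 1 was 2-fold higher and 0 were 2-fold lower, beside 2.51% and 0.511% of all genes at the floor. The higher gene was Cdh17, a cadherin of intestinal epithelium that is also on the enterocyte list, at 6.05 in transgenic and 4.60 in control islets, the control value below the floor. Of 25 other epithelial genes 15 reached the floor, with a median of 0.23, and Prom1, a protein of apical membrane protrusions, was the 1 past the rule. Prom1 read 12.17 in transgenic and 11.07 in control islets. Of 11 mesenchymal genes 7 reached the floor, with a median of 0.74. Col1a1, Col1a2, Col3a1, Pdgfra, Pdgfrb and Acta2 are also on the stellate and fibroblast list, so these lists are not independent. Col1a2, a collagen chain, was the 1 past the rule at 1.27, and Vim (vimentin) read 10.25 in transgenic and 10.02 in control islets. For the epithelial and mesenchymal lists too, 2.51% is the share over all genes at the floor.

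**Figure D3:**
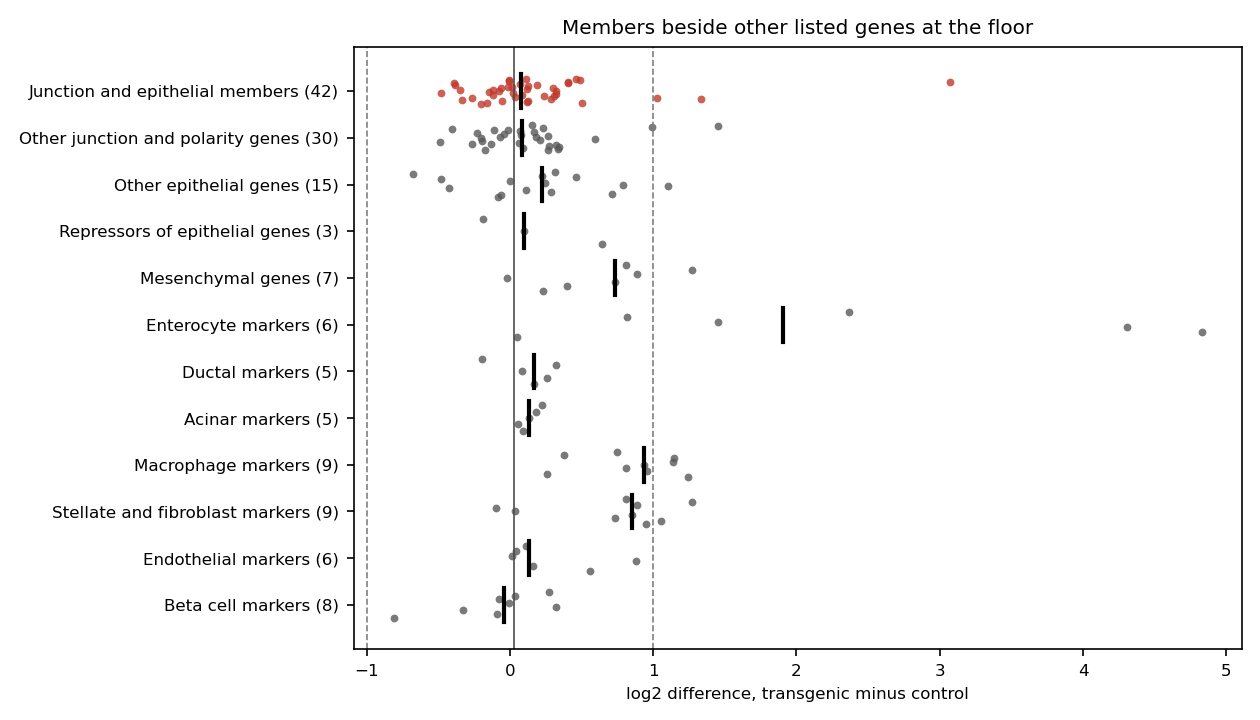
Log2 difference, transgenic minus control, of each gene at the floor in the junction and epithelial group and in other listed groups; the number of genes is in brackets, thick bars are medians, the thin line is the median over all genes (0.029) and dashed lines mark 2-fold. The junction genes centre near 0 with Cldn2 far to the right. Some genes are in several groups, among them Col1a2, Col3a1, Pdgfrb and Acta2, shown as both mesenchymal and stellate. The enterocyte, macrophage and stellate genes shown have medians of 1.91, 0.94 and 0.85, and 0.81, 0.88 and 0.81 with the measured genes below the floor included; 4 of the 6 enterocyte genes shown reached the floor on the transgenic array alone.

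Promoter windows were then read for the E-box that Zeb and Snail factors bind. The search used the letters CAGGTG on both strands, in RefSeq windows of 300 bases, from 250 before to 50 after a transcript's start. Windows were found for 34 of the 50 genes. Of their 48 windows 23 (47.9%) held the letters, beside 20.2% of all 32851 windows. By gene, 19 of 34 had them, against 22.9% of 14452 genes that are on the array and have a window. Windows with 3 or more copies belonged to 5 of the 34 genes (Ap1m2, Crb3, Pard3, Patj and Spint2), where 0.512% of all genes had such a window. The members were chosen as epithelial genes, and a match describes letters, not a bound site. Of the 2 other motifs searched on both strands, AACCGGTT (Grainyhead-like) was in 0 member windows and 0.146% of all, and TATAAA in 7 member windows and 13.6% of all.

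The windows of 4 genes with 3 or more E-boxes, and of the other 2 genes past the 2-fold rule, are printed to set sequence beside difference. They run 5' to 3' on the gene's strand in GRCm38.p6, with each E-box in capitals. Where a gene had several windows, the one furthest upstream is shown.
Patj, chr4:98395576-98395875, plus strand: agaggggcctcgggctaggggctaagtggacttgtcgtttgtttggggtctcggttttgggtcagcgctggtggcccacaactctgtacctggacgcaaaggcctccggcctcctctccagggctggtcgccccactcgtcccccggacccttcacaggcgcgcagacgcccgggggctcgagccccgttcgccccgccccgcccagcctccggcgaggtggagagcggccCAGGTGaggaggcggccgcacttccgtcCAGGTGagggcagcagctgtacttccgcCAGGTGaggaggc
Crb3, chr17:57061951-57062250, plus strand: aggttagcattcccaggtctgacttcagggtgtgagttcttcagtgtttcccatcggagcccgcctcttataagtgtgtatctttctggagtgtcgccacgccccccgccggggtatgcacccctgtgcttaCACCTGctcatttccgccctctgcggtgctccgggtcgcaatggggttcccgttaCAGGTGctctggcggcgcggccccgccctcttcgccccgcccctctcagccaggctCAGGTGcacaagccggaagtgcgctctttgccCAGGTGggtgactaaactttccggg
Ap1m2, chr9:21312284-21312583, minus strand: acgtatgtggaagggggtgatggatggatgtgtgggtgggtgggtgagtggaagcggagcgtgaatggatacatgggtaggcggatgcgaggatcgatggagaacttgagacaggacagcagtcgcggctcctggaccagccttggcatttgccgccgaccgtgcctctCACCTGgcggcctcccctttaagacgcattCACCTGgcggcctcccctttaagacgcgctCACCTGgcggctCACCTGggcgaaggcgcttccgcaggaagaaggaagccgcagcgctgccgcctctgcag
Spint2, chr7:29281928-29282227, minus strand: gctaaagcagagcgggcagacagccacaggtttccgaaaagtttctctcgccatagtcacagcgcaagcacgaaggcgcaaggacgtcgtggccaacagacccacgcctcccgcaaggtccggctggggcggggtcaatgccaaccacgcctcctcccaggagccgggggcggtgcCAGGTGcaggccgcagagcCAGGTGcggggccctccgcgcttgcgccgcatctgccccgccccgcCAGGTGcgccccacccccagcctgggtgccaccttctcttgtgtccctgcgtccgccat
Cldn2, chrX:139800558-139800857, plus strand: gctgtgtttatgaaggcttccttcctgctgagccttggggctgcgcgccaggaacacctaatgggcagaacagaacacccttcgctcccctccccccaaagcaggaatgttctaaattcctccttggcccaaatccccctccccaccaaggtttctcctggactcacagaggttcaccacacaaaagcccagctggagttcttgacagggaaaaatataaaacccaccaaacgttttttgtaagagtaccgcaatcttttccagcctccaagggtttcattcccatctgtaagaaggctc
Ovol2, chr2:144331313-144331612, minus strand: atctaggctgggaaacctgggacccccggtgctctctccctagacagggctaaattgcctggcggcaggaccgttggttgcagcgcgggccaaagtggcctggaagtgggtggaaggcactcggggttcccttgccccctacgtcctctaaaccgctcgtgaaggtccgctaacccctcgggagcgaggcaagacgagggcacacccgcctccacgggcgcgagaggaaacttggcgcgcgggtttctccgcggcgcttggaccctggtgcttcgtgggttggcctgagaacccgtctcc
Patj carries 3 copies, the first beginning 19 bases upstream of the start site and the others 9 and 37 bases within the transcript. Crb3 carries 4, beginning 118, 63 and 7 bases upstream and 25 bases within. Ap1m2 has 4, from 81 to 9 bases upstream, and Spint2 has 3, from 74 to 9 bases upstream. Cldn2 and Ovol2 have none in these windows.

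Members with and without the E-box had differences of both signs. The 4 printed genes with at least 3 copies had differences of 1.33 (Patj), -0.38 (Crb3), 0.46 (Ap1m2) and 0.12 (Spint2), and the fifth such gene, Pard3, one of -0.27. Members with the E-box all reached the floor (19 of 19), with a median difference of 0.071, while 9 of 15 members without it did, with a median of -0.0079. Members without it that stayed below the floor were all claudins (Cldn1, Cldn5, Cldn10, Cldn11, Cldn15 and Cldn18), so these shares depend on which claudins were listed. Over all genes with a window, 65.4% of those with the letters and 68.6% of those without reached the floor, with median differences of 0.032 (2169 genes) and 0.028 (7637 genes). Of the 3 members past the 2-fold rule, 1 had the E-box (5.26% of 19 at the floor) and 2 did not (22.2% of 9), beside 2.54% of all genes with the letters and 2.42% of all without them.

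**Figure D4:**
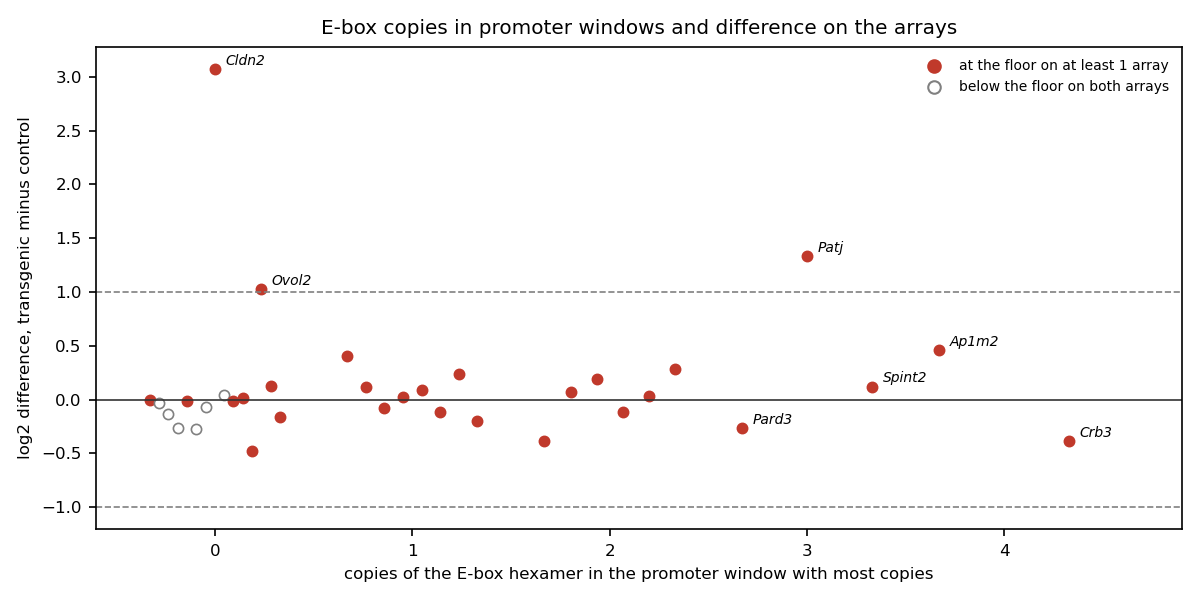
Log2 difference, transgenic minus control, of the 34 members with a promoter window against the number of E-box copies in the window with most; points are spread sideways for legibility, open points lie below the floor on both arrays and dashed lines mark 2-fold. The 5 genes with 3 or 4 copies span -0.38 to 1.33, and Cldn2 and Ovol2 stand at 0 copies.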

How the data were processed

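Total RNA of islets from 1 transgenic and 1 control sample was hybridised to Affymetrix mouse arrays. Each probe set has a deposited log2 value, which the authors made with RMA in Affymetrix Expression Console, per the submitters' processing notes, which name no version. This method corrects background, equalises the distributions of arrays and summarises probes. Differences on such arrays can be flattened at both ends of the scale. Precision is limited by the number of arrays.

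Gene symbols came from the platform's annotation and were updated by Entrez identifier to the GRCm38.p6 gene table: 34945 of 45101 had 1 symbol, and 34741 of these matched. Differences, the floor of 5.76 and the 2-fold rule were computed with Python 3.11.15, numpy 2.4.6 and pandas 2.3.3. The code was checked by adding known differences, without noise, to a copy of the control array. That check does not test the floor or the rule on noisy arrays. The members and lists were chosen with earlier results of these data known. Values were given for members at least 1.5-fold apart, for the 2 with the highest level in each group and for Cdh1, Ocln, Tjp1, Epcam, Krt19 and Cldn2; all other members were named after their values were seen. Of the other junction, epithelial, repressor and mesenchymal genes, those past 2-fold and Zeb1, Zeb2, Snai1, Snai2 and Vim were named by rule; cell type markers were named after their values were seen. Alternatives were probe sets averaged, multi-match classes left out, no floor, a floor at the 75th percentile, a lowess trend subtracted (statsmodels 0.14.6, span 0.3), a second quantile normalization and a 1.5-fold rule. Promoter and microRNA sequences came from RefSeq tables of GRCm38.p6.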

Additional observations from a re-analysis of the deposited data

How the results depend on the processing

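Cldn2 passed the 2-fold rule under every alternative tried, although averaging its probe sets lowered its difference to 1.54. Patj passed it except with probe sets averaged, where it stood at 0.99, and Ovol2 passed it except after the lowess trend or a second quantile normalization, where it stood at 0.97 under both. Counts of higher members ran from 2 to 4, with Cldn8 added when there was no floor, and the count of lower members was 0 throughout. These are counts among 33 to 50 members, depending on the setting. Over all genes at the 2-fold rule, 1.91% to 2.53% were higher and 0.35% to 0.688% lower. A count of 0 lower among so few members is therefore near the share over all genes. The median difference of the members ran from 0.040 to 0.11, and that of all genes from 0.00049 to 0.029. For single members at the floor, no difference moved by more than the usual gap between probe sets (0.28) under the lowess or quantile settings, and 3 of 42 did with probe sets averaged (Cldn2, Patj and Pard3). Averaging also turned the sign of 5 small differences, those of Pard3 (0.22), Ocln (-0.20), Ctnnb1 (0.18), Ctnna1 (-0.11) and Ctnnd1 (-0.057), so the split into positive and negative members depends on it. It takes in probe sets below the floor on both arrays, as for Cldn2, Patj, Pard3, Ctnna1 and Ctnnd1. The probe sets of Ctnna1 and Ctnnd1 at the floor were all positive. All probe sets of Ocln and Ctnnb1 were at the floor. Without multi-match classes 33 members could be read, and Grhl2 moved to -0.46. With 1 array per genotype no replicate could be left out. No paired analysis was possible because each genotype has a single array. Background limits the Cldn2 and Cldn8 differences, and the table used here holds no detection calls.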

Other observations

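Values of some other genes on the lists are given here, all chosen after they were seen. Cdh4 (R-cadherin), a cadherin of neural and kidney tissue, read 7.62 in transgenic and 6.62 in control islets, a difference of 0.99, and a second probe set had a difference of 1.41. Lad1, a protein of epithelial anchoring filaments, had a difference of 0.79, and the membrane protease gene Tmprss2 one of 0.72, with another probe set at the floor at 0.30. Elf3, a transcription factor of epithelial cells, read 9.19 in transgenic and 9.86 in control islets, a difference of -0.68. Krt20, a keratin of gut epithelium, read 5.12 in transgenic and 3.79 in control islets, a difference of 1.33 with both values below the floor. Msln, a surface protein of mesothelium, had a difference of -0.89. None of these has a replicate check.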
